A study of Mus musculus with 3 samples.

Results

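The genes described here are 42 genes of DNA repair and of the checkpoints that respond to DNA damage, chosen by name from textbook pathways. The choice was made with earlier results of these data known. They were measured in 3 mammary tumours from WAP-SVT/t transgenic animals, females of the NMRI strain. In this model the Wap promoter, normally active in milk-producing cells, drives the simian virus T and t antigens in the epithelium of the gland, and all 3 tumours share this transgene. The design had no normal gland and no untreated group here, so every comparison is between tumours. Each tumour was hybridised to 1 array, with no replicate array, and tumours 1 and 2 carry the same leading number in their titles, whose meaning is not given. A probe set naming exactly 1 of these genes was found for 39 of the 42, out of 12393 genes named on the array. No probe set was assigned to Fancd2, Xrcc2 or Lig4 alone, and these were not analysed here. Levels are log2(intensity + 50) after quantile normalization, for the brightest probe set of a gene. A gene was counted as measured when its mean level reached 7.40, the median of all probe sets, equal to an intensity of 119. This filter left 35 of the 39 genes and 6951 genes in all. With 1 group and 1 array per tumour no test was possible, and differences below are descriptions whose precision is limited by the number of arrays.

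DNA repair runs through several pathways that each recognise another kind of lesion. Broken strands are rejoined by homologous recombination, which copies the sister chromatid, or by end joining. Mismatch repair corrects replication errors, base excision repair removes damaged single bases, and nucleotide excision repair cuts out bulky lesions such as those made by ultraviolet light. The kinases Atm and Atr sense damage and signal through Chek1 and Chek2 to halt the cell cycle. Many recombination and checkpoint genes are transcribed mainly in cycling cells, under E2F factors that the retinoblastoma protein restrains. Large T antigen binds both the retinoblastoma protein and p53, and inherited loss of BRCA1 or BRCA2 predisposes to breast cancer.

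Few of these repair genes reached a 2-fold difference between the tumours. Highest and lowest tumour were at least 2-fold apart for 4 of the 35 measured genes, or 11.4%, while 24.8% of all measured genes were that far apart. These 4 were the nuclease subunit gene Ercc1, the cohesin gene Rad21, the mismatch recognition gene Msh6 and the endonuclease gene Apex1. The median range of the repair genes was 0.60 (log2), or 1.52-fold, beside 0.66 over all measured genes. That order turned with the mean of probe sets (0.65 beside 0.59), without suffixed probe sets (0.69 beside 0.66), without the filter (0.60 beside 0.50) and with the filter at the 75th percentile (0.75 beside 0.66). The share at 2-fold also turned at the 75th percentile, where the same 4 genes were 36.4% of 11 measured repair genes, beside 24.9% of all genes. At 1.5-fold the repair genes were near the background, with 19 of 35 (54.3%) beside 57.1% of all genes. The 75th percentile of the range was 0.77 for the repair genes and 0.99 for all genes. Between pairs of tumours, 2 repair genes were at least 2-fold above tumour 1 in tumour 3 (4.55% of all genes were), and 1 was in tumour 2 (4.57%). Over tumour 3, 1 was that far up in tumour 1 (8.33%) and 1 in tumour 2 (10.8%). Over tumour 2, 1 was in tumour 3 (5.14%) and 0 in tumour 1 (3.68%). With tumour 1, 2 or 3 left out, the count at 2-fold was 2 of 35, 3 of 33 and 1 of 36. Each is over a pair of tumours normalized and filtered again, with no share over all genes beside it. These counts are not comparable with the count over 3 tumours.

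**Figure D1:**
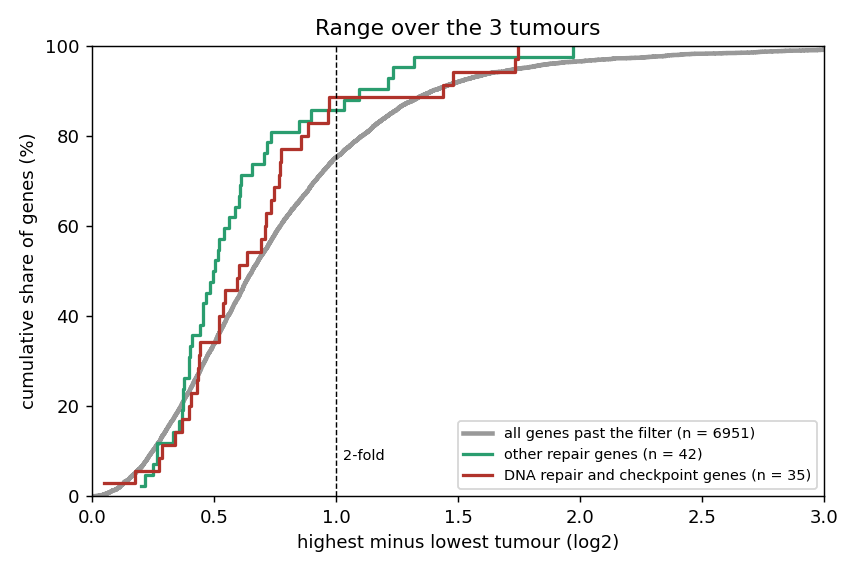
Cumulative share of genes (%) against the range over the 3 tumours (log2, highest minus lowest) for 35 DNA repair and checkpoint genes, 42 other repair genes and all 6951 measured genes. The dashed line marks 2-fold, which 4 repair and checkpoint genes, 6 other repair genes and 24.8% of all genes reached.

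The repair genes were most often highest in tumour 3. This held for 20 of the 35, or 57.1%, beside 30.2% of all measured genes. Another 8 were highest in tumour 2 (background 39.2%) and 7 in tumour 1 (background 30.6%). Tumour 3 was the lowest for 10 of them, or 28.6%, where it was the lowest for 44.1% of all genes. The lowest was tumour 1 for 14 of them (background 28.8%) and tumour 2 for 11 (background 27.1%). The median deviation from the mean of the tumours was -0.05, -0.04 and 0.20 (log2) in tumours 1, 2 and 3 for the repair genes. Over all genes it was 0.02, 0.06 and -0.07. The sign of the small value for tumour 2 changed to 0.019 with the intensities as deposited. With these, 18 of 35 repair genes were highest in tumour 3, beside 30.6% of all genes. Some top places rested on near ties. Tumours 2 and 3 had intensities of 173 and 172 for Rad51c, and 130 in both for Fancc.

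Cell content and RNA controls also differed in tumour 3, and their part in this shift was not tested. In bulk tissue, fewer cells of a type and less RNA per cell cannot be told apart. The summed intensity of 8 macrophage markers was 15699, 14364 and 8309 in tumours 1, 2 and 3, and 8 of 8 were lowest in tumour 3 (background 44.1%). That of 4 adipocyte markers was 812, 951 and 6063. Sums were also lowest in tumour 3 for 7 fibroblast and matrix markers (12597, 12638 and 9358), 6 endothelial markers (762, 1046 and 539) and 5 basal markers (2275, 1622 and 1351). Among those measured, 4 of 7 fibroblast and matrix, 3 of 3 endothelial and 1 of 1 basal markers were lowest there (background 44.1%). The other 3 fibroblast and matrix markers were lowest in tumour 1. The 5 epithelial markers summed to 19123, 20394 and 20212, but single markers went opposite ways. Krt19 read 1590, 803 and 454, and Cdh1 1313, 1403 and 2793. The 14 markers of cycling cells summed to 31855, 31455 and 35391. Of these, 5 of 14 (35.7%) were highest in tumour 3, near the 30.2% of all genes. All 6 T and NK cell markers on the array were below the filter, with sums of 138, 125 and 71. The control for the middle of 18S ribosomal RNA read 9856, 9311 and 400, and that for its 3′ part 2697, 1833 and 7147. The ratio of 3′ to 5′ signal was 0.50, 0.40 and 12.7 for 18S, 1.04, 1.21 and 1.26 for actin and 0.90, 1.21 and 0.81 for Gapdh.

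**Figure D2:**
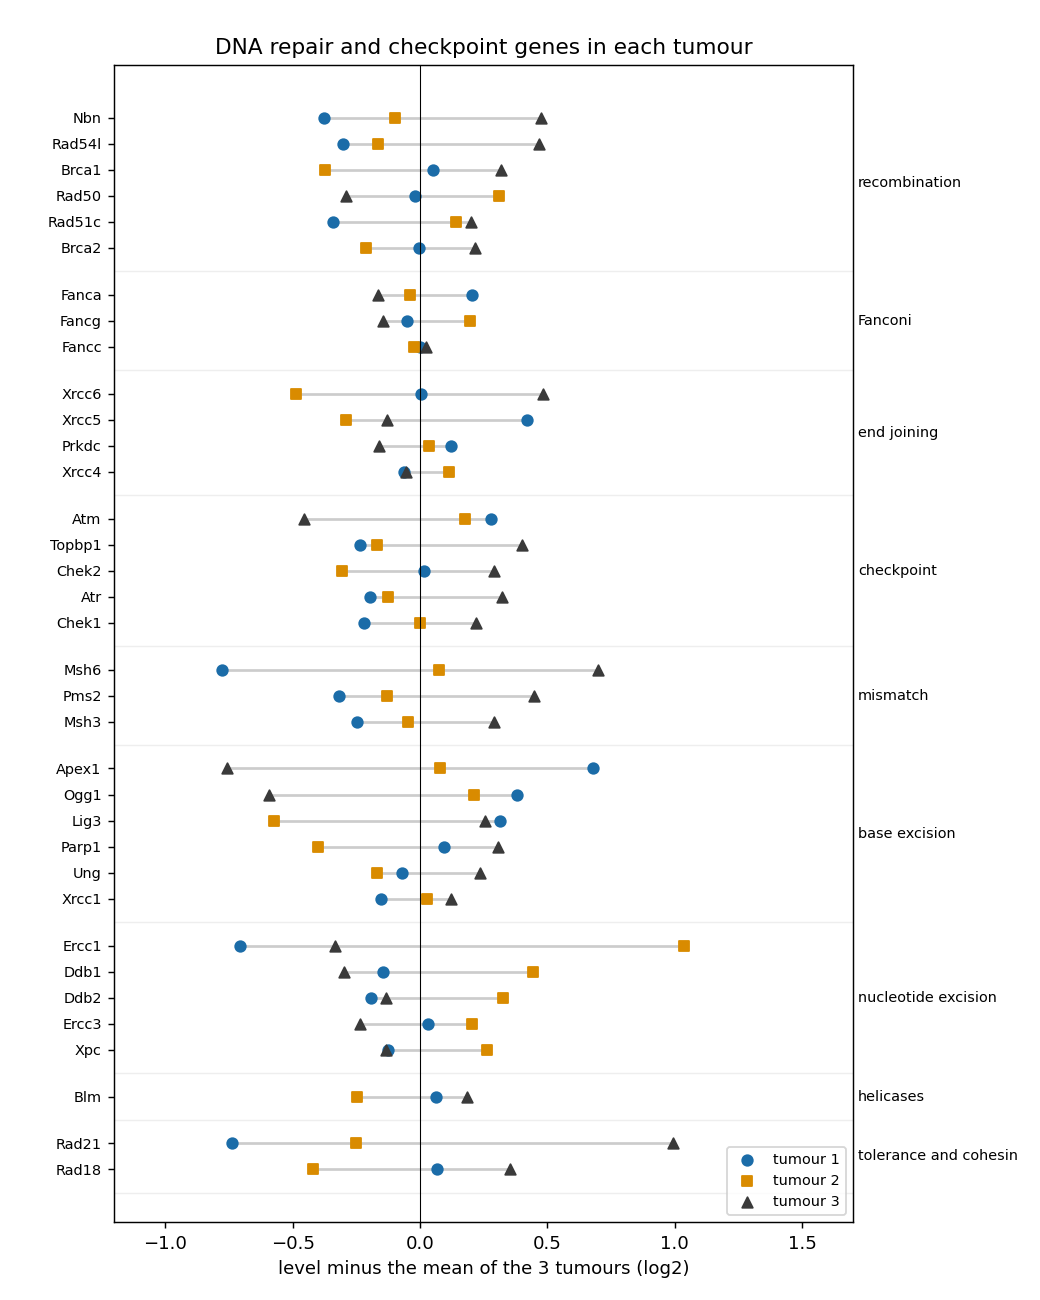
Level of each of the 35 measured repair genes in every tumour, as the difference from its own mean over the 3 tumours (log2), with genes grouped by role on the vertical axis. The triangle of tumour 3 lies farthest right for 20 genes, and the square of tumour 2 lies farthest right for all 5 measured nucleotide excision genes.

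Promoter sequence was examined as a feature that did not enter the choice of genes. The RefSeq table of assembly GRCm38.p6 held promoters for 31 of the 39 genes, and the 250 bases before the start were searched on both strands. An E2F motif (TTTCCCGC, TTTCGCGC, TTTGCCGC or TTTGGCGC) was present for 7 of these 31 genes, or 22.6%. It was present in 1.86% of all 32851 windows and for 4.39% of the 5698 measured genes with a window. The 7 were Brca2, Chek2, Topbp1, Msh3, Xrcc6, Fancg and Bard1. Of the 6 that were measured, 5 were highest in tumour 3 (83.3%), as were 13 of the 22 measured genes with a window and no match (59.1%). Over all measured genes the share was 30.2%. With 6 genes no difference between these groups can be read, and a part of the motif in the order of the tumours was not tested. The windows of these 6 genes are shown because they carry the motif, with every motif match in capitals, 5′ to 3′.
Brca2, chr5:150522371-150522620, plus strand: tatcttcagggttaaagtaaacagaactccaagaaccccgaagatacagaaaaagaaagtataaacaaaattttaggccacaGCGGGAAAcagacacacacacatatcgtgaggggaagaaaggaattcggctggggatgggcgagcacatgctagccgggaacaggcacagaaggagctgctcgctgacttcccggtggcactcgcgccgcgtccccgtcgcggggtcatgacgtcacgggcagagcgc
Chek2, chr5:110839733-110839982, plus strand: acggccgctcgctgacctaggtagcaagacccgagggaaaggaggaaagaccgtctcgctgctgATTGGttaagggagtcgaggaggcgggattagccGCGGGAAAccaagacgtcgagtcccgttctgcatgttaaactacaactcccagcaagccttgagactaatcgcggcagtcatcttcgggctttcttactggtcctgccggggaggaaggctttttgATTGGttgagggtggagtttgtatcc
Topbp1, chr9:103305077-103305326, plus strand: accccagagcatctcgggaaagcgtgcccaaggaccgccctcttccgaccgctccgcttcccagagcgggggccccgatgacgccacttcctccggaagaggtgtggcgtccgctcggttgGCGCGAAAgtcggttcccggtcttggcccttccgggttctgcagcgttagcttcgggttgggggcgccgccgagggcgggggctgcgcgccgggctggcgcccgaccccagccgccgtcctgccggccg
Msh3, chr13:92355004-92355253, minus strand: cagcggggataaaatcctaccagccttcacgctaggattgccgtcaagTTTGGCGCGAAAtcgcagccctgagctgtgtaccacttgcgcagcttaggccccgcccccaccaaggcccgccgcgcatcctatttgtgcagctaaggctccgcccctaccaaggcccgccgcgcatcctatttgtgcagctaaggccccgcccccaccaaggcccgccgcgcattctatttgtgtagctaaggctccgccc
Xrcc6, chr15:82016119-82016368, plus strand: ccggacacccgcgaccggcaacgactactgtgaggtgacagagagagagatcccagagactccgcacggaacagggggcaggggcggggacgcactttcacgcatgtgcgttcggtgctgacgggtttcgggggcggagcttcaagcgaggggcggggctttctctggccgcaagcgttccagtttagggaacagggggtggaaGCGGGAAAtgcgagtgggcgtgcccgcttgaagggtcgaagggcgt
Fancg, chr4:43010302-43010551, minus strand: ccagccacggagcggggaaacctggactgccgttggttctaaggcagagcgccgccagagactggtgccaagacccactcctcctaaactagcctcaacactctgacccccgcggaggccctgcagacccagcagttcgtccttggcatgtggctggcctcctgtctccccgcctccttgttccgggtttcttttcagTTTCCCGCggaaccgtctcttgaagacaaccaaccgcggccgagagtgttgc
The E2F letters began 168 bases before the start in Brca2, 152 in Chek2, 129 in Topbp1, 46 in Xrcc6 and 52 in Fancg. In Msh3 a pair of matches on opposite strands overlapped, at 202 and 198 bases. Chek2 also held the CCAAT motif, read as ATTGG, at 186 and 26 bases. CCAAT occurred for 15 of the 31 genes (48.4%) and for 40.7% of measured genes with a window. The cell cycle homology motif (TTTGAA or TTCGAA) occurred for 3 of 31 (9.68%, beside 14.5%) and a p53 motif unit (GGGCATGT, GGGCAAGT, AGACATGT or AGACAAGT) for 1 of 31 (3.23%, beside 2.65%). These matches are letters in a window and show no binding.

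Recombination genes were mostly highest in tumour 3. Of 6 measured genes, 5 were highest there (background 30.2%), and 0 of 6 reached 2-fold (background 24.8%). Brca1 encodes the ubiquitin ligase that prepares breaks for recombination, and it was at 9.67, 9.25 and 9.94 in tumours 1, 2 and 3, intensities of 742, 579 and 949. With the mean of its probe sets the range of Brca1 was 1.16 (log2), past 2-fold. Brca2, which loads the recombinase onto single-stranded DNA, was at 8.28, 8.07 and 8.50. For both the bottom tumour was tumour 2 and the top one tumour 3. Rad54l, a motor protein that helps strand exchange, was at 8.28, 8.42 and 9.05, and Rad51c, of the recombinase paralogs, at 7.27, 7.75 and 7.81. Tumour 1 was lowest for both. Nbn and Rad50 encode partners in the complex that binds broken ends, yet their orders differed. Nbn was at 8.15, 8.43 and 9.01, a 1.81-fold range with tumour 3 on top. Rad50 was at 9.12, 9.45 and 8.85, with tumour 3 at the bottom. Bard1, the partner of Brca1, was below the filter, with intensities of 28, 13 and 25.

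Genes of the Fanconi pathway, which repairs links between the strands, had a median range of 0.34 (log2), the narrowest among the roles. Fanca was at 8.65, 8.41 and 8.28, Fancg at 7.57, 7.82 and 7.48, and Fancc at 7.47, 7.45 and 7.50. Each was highest in another tumour, and the widest of these ranges was 1.29-fold. All 3 encode subunits of the core ubiquitin ligase complex. Fancc had the narrowest range among the repair genes, 0.05 (log2), and lay close to the filter.

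End joining genes had no common order. Xrcc5 and Xrcc6 encode the subunits of Ku, the ring that clamps onto broken ends. Xrcc6 was at 9.20, 8.71 and 9.68 (intensities of 520, 386 and 772), a 1.96-fold range just under the 2-fold mark, and it passed that mark with an offset of 16. Xrcc5 was at 8.86, 8.15 and 8.31. Both Ku subunits were lowest in tumour 2, but Xrcc6 was highest in tumour 3 and Xrcc5 in tumour 1. Prkdc, the kinase that Ku recruits, was at 7.68, 7.59 and 7.39. Xrcc4, the partner of the ligase that seals the break, was at 7.37, 7.55 and 7.38, and only tumour 2 was above the filter level.

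The damage kinases Atm and Atr had opposite orders. Atm, which responds to broken ends, had intensities of 484, 483 and 274, lowest in tumour 3. Atr, which responds to stalled forks, had 178, 204 and 278, highest in tumour 3. Topbp1 and Chek1, which act with Atr, had the same top tumour. Topbp1, the activator of Atr, was at 9.58, 9.65 and 10.22, and Chek1, its effector kinase, at 8.77, 8.99 and 9.22. Chek2, the effector kinase of Atm, was at 8.26, 7.94 and 8.53, and so was not lowest in tumour 3 as Atm was. In all, 4 of 5 checkpoint genes were highest in tumour 3 (background 30.2%), and 0 of 5 reached 2-fold (background 24.8%).

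All 3 mismatch repair genes were lowest in tumour 1, middle in tumour 2 and highest in tumour 3. Msh6, which with its partner recognises single mispaired bases, had intensities of 235, 496 and 763. Its levels of 8.19, 9.04 and 9.66 gave a 2.78-fold range (mean 8.96 ± 0.74 SD, n = 3), and it was covered by 1 probe set. Msh3, which recognises longer loops, was at 7.73, 7.93 and 8.27. Pms2, a subunit of the nicking enzyme, was at 7.92, 8.11 and 8.69. Among all measured genes 28.8% were lowest in tumour 1 and 30.2% were highest in tumour 3.

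Base excision and strand-break genes included several that were lowest in tumour 2. Parp1, the sensor that marks nicked DNA with poly(ADP-ribose), was at 9.81, 9.31 and 10.02 (intensities of 821, 608 and 1011). Lig3, the ligase that seals the nick, was at 8.63, 7.75 and 8.57 (338, 172 and 324), a 1.85-fold range in which tumours 1 and 3 lay within 0.06 of each other. Ung, which removes uracil from DNA, was at 8.54, 8.45 and 8.85. Tumour 2 was lowest for these 3 genes, while the scaffold gene Xrcc1, the partner of Lig3, was at 8.06, 8.24 and 8.33. Ogg1, which removes oxidised guanine, was at 8.23, 8.06 and 7.26, and tumour 3 was below the filter level. Without suffixed probe sets the difference between tumours 1 and 3 was 0.36 (log2) in place of 0.97, from a probe set below the filter. Apex1 encodes the endonuclease that cuts at sites without a base. Its brightest probe set read 4146, 2729 and 1592, levels of 12.07, 11.47 and 10.63 and a 2.71-fold range with tumour 3 lowest. The other probe sets of Apex1 did not repeat that order, as given below.

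Most nucleotide excision genes had the same top tumour. All 5 measured genes were highest in tumour 2 (background 39.2%), and the same 5 were on top there with values as deposited and with array medians subtracted. Another offset is no check here, since after quantile normalization it cannot change the order of the tumours within a probe set. Without the filter 6 of 7 were highest in tumour 2 (37.9% of all genes), so the filter shaped the count. The median deviation of the 5 measured genes was -0.15, 0.33 and -0.24 (log2). Ercc1, a subunit of the nuclease that cuts beside the lesion, had intensities of 306, 1177 and 415. Its levels of 8.51, 10.25 and 8.88 gave a 3.35-fold range, the widest among the repair genes (mean 9.21 ± 0.92 SD, n = 3), from 1 probe set. Tumour 2 was 2.59-fold above the next tumour. Ddb1 and Ddb2 encode the complex that finds ultraviolet damage, and both followed the same pattern. Ddb1 was at 10.55, 11.15 and 10.40, and Ddb2 at 8.21, 8.73 and 8.27. Xpc, which senses lesions across the genome, was at 7.33, 7.72 and 7.32, and only tumour 2 was above the filter level. Xpc thus passed the filter through the tumour in which it was highest. Ercc3, a helicase of the TFIIH complex, was at 8.52, 8.69 and 8.25. The companion helicase gene Ercc2 and the damage-binding gene Xpa were below the filter. Ercc2 had intensities of 153, 155 and 61, and Xpa 95, 103 and 53. The levels of Ercc2 were 7.70, 7.63 and 6.78, highest in tumour 1, with a mean of 7.37 just below the filter.

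Among the remaining genes, Rad21 had a wide range. It encodes the ring-closing subunit of cohesin, which holds sister chromatids together for division and for repair. Its intensities were 1222, 1764 and 4654, levels of 10.36, 10.85 and 12.09 (mean 11.10 ± 0.89 SD, n = 3), and tumour 3 was 2.37-fold above tumour 2. Rad18, the ubiquitin ligase that lets polymerases pass lesions, was at 8.06, 7.57 and 8.35. The helicase gene Blm, which dissolves recombination intermediates, was at 8.67, 8.35 and 8.79. Tumour 2 was lowest and tumour 3 highest for both. The unsuffixed probe set of Rad18 was also highest in tumour 3 but lowest in tumour 1, at 7.74, 7.97 and 8.14. Wrn, another helicase gene of that family, was below the filter with intensities of 44, 85 and 115.

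Of the 4 genes at least 2-fold apart, 3 have a window in the promoter table, shown with the same capitals.
Msh6, chr17:87974800-87975049, plus strand: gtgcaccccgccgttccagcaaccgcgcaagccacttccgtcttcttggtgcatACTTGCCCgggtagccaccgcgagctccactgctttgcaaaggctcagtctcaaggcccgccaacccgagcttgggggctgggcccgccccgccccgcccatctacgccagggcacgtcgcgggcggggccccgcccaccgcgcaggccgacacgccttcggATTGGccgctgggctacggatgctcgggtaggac
Ercc1, chr7:19344821-19345070, plus strand: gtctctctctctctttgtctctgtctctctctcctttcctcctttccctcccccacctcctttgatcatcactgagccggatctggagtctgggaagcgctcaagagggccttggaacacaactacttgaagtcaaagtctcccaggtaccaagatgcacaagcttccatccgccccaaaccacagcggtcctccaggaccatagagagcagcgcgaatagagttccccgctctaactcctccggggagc
Apex1, chr14:50924699-50924948, plus strand: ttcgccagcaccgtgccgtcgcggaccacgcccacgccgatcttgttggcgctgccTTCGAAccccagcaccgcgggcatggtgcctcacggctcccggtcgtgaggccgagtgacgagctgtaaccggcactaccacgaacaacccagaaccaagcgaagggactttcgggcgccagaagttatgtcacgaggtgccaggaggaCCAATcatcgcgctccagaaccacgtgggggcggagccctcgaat
None of these 3 windows held the E2F letters. Msh6 had a p53 motif unit, read as ACTTGCCC, at 196 bases and CCAAT at 34 bases before the start. Apex1 had TTCGAA at 194 bases and CCAAT at 45 bases. The Ercc1 window held none of the 4 motifs searched.

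Probe sets of the same gene gave a check on the measurement, although they share the RNA and the array. For 9 repair genes with further probe sets above the filter level, 12 of 13 such probe sets had the same sign of difference between the gene's highest and lowest tumour. That is 92.3%, beside 72.9% of 3483 probe sets over all genes. Both the highest and the lowest tumour were the same in 7 of 13 (53.8%, beside 34.5%). The median disagreement in that difference was 0.42 (log2), beside 0.46 over all genes, which is of the order of many ranges given above. Differences were repeated for Brca1, Parp1, Lig3 and Chek1. All 3 probe sets of Brca1 above the filter level had their minimum in tumour 2 and their maximum in tumour 3. The dimmer of these read 150, 97 and 364, a 2.92-fold range, and 113, 43 and 338, a 4.30-fold range. The former was below the filter level in tumour 2, at 7.17. The latter, at 7.38, 6.52 and 8.62, passed the filter only through tumour 3, where it was highest. So did the further probe set of Rad51c, at 6.99, 7.27 and 7.94, and both are among the 13 counted. All 3 probe sets of Parp1 also had their minimum in tumour 2 and their maximum in tumour 3. All 5 probe sets of Lig3 were lowest in tumour 2, but the top was tumour 1 in 1 of them and tumour 3 in the others. Both probe sets of Chek1 above the filter level had their minimum in tumour 1 and their maximum in tumour 3.

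Rad21 and Apex1 differed between their probe sets. All 3 probe sets of Rad21 were highest in tumour 3, at 4654, 1699 and 1306, while the lowest was tumour 1 in 2 of them and tumour 2 in the other. For Apex1 the range at 2-fold rested on the brightest probe set, whose suffix marks probes that can match other sequences. The unsuffixed probe set read 1580, 946 and 1366, and the remaining one 1057, 631 and 1405. In both, tumour 2 was the lowest. The difference between tumours 1 and 3 was 0.29 (log2) in the unsuffixed one and -0.29 in the other, against 1.44 in the brightest. Without suffixed probe sets 3 repair genes stayed at least 2-fold apart, and Apex1 was not among them.

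**Figure D3:**
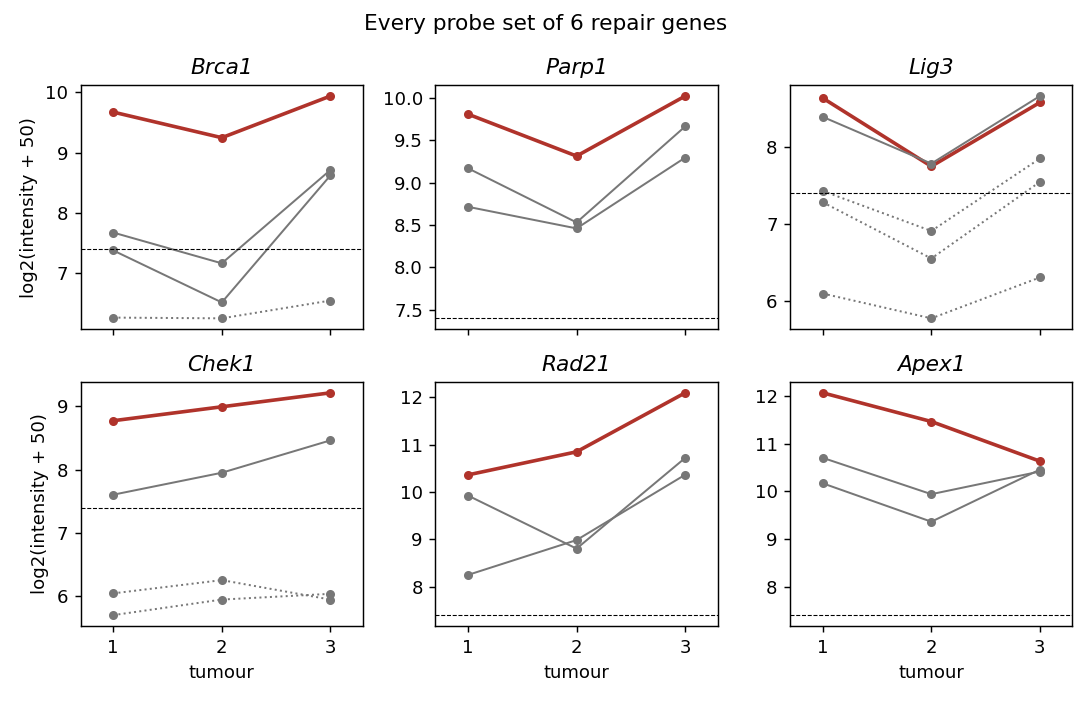
Level, log2(intensity + 50), of every probe set of 6 repair genes in tumours 1, 2 and 3. The thick red line is the brightest probe set used for the gene, grey lines are the others (dotted where the mean lies below the filter), and the dashed line is the filter at 7.40. Parp1 and Lig3 dip in tumour 2 in every probe set and Brca1 in all 3 above the filter, and each probe set of Apex1 has a different order of the tumours.

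Genes beside the 4 wide-ranging genes on the chromosome were compared with them, a choice made after their values were seen. Order along the chromosome came from the RefSeq gene table of GRCm38.p6, and the 5 nearest measured protein-coding genes on each side were taken. Around Rad21, 8 of 10 neighbours were also highest in tumour 3 (background 30.2%). The transmembrane protein gene Mal2 was at 7.74, 6.82 and 9.48, the mediator subunit gene Med30 at 10.32, 9.74 and 10.88, and Eny2 at 9.35, 8.22 and 10.05. The immediate neighbour Eif3h differed little, at 11.84, 12.13 and 12.00. Of the 10, 3 shared tumour 1 as the lowest, and 1 of 10 had at least a 2-fold difference between tumours 3 and 1. Around Msh6, 8 of 8 neighbours were also lowest in tumour 1 (background 28.8%), among them Socs5 at 9.55, 11.30 and 10.38 and Fbxo11 at 7.04, 8.01 and 8.63. Only Fbxo11 shared the top tumour of Msh6. Around Ercc1, 5 of 10 were highest in tumour 2 (background 39.2%), and around Apex1, 3 of 10 were highest in tumour 1 (background 30.6%). Over all 6712 genes with 10 neighbours, the median gene shared its top tumour with 4 of them, and 3.46% shared it with 8 or more. Of the 33 repair genes with 10 neighbours 2 did so (6.06%), Rad21 and Rad54l.

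**Figure D4:**
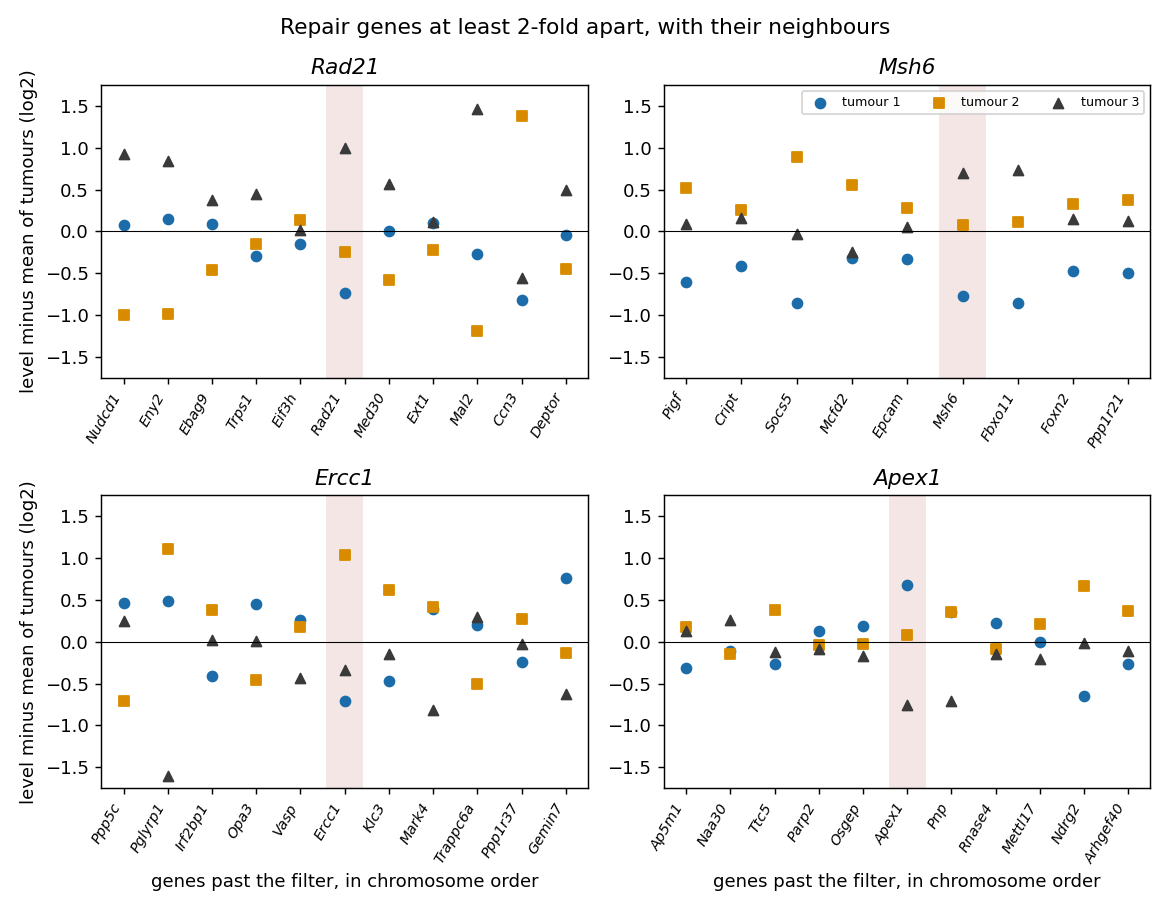
Level minus the mean of the 3 tumours (log2) for Rad21, Msh6, Ercc1 and Apex1 (shaded) and for the nearest measured genes on each side, in chromosome order and not to distance. Tumour 3 is highest for 8 of the 10 neighbours of Rad21, and tumour 1 is lowest for 8 of 8 neighbours of Msh6.

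A list of 83 other repair genes was described in the same way, of which 57 were on the array and 42 were measured. Of these, 6 of 42 (14.3%) were at least 2-fold apart beside 24.8% of all genes, and the median range was 0.50 (log2). At 1.5-fold they were 16 of 42 (38.1%), beside 57.1% of all genes. Tumour 3 was the highest for 21 of 42 (background 30.2%), tumour 2 for 17 (background 39.2%) and tumour 1 for 4 (background 30.6%). With tumour 1, 2 or 3 left out, the count at 2-fold was 4 of 43, 1 of 42 and 3 of 41. Each is over a pair of tumours, with no share over all genes beside it, and is not comparable with the count over 3 tumours. Rad1, a subunit of the clamp that activates Atr, had the widest range, 3.92-fold, with intensities of 254, 79 and 439. This came from 1 probe set, with tumour 2 below the filter level, and tumour 3 was 1.59-fold above tumour 1 for Rad1. Its partner Hus1 was at 7.80, 7.82 and 8.54 and the clamp loader gene Rad17 at 8.68, 9.01 and 9.29, while Rad9a, the remaining clamp subunit, was at 8.00, 8.21 and 7.50. Fancl and Ube2t, the ligase and conjugating enzyme of the Fanconi pathway, were lowest in tumour 2. Fancl was at 8.58, 7.80 and 8.90, and Ube2t at 8.19, 8.02 and 9.05. The break-response ligase gene Rnf8 was highest in tumour 1 and lowest in tumour 3, at 9.15, 8.82 and 7.94. Ercc5, the other nuclease of nucleotide excision repair, had intensities of 103, 356 and 167 and was highest in tumour 2, like Ercc1. Tumour 1 was below the filter level for Ercc5. Polk, a lesion-bypass polymerase gene, read 131, 405 and 134.

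Not all nucleotide excision genes of the second list were highest in tumour 2. Of its 4 measured genes, 1 was (Ercc5, background 39.2%). Rad23b, a partner of Xpc, was at 10.33, 9.91 and 10.76 and Cetn2, another partner, at 8.65, 8.44 and 9.34. Both had their minimum in tumour 2. In recombination, all 3 measured genes of the second list were highest in tumour 3, as were 5 of 6 of the first (background 30.2%). Mre11a, the nuclease that completes the complex of Nbn and Rad50, was at 8.56, 8.76 and 8.82. The resection gene Exo1 was at 8.56, 8.56 and 9.16, and Rad51ap1 at 9.41, 9.04 and 9.54. The other cohesin subunits did not follow Rad21. Smc1a was at 10.26, 10.54 and 10.14, Smc3 at 10.25, 10.25 and 10.05 and Stag2 at 10.35, 10.81 and 10.54, and only Stag1, at 9.11, 9.21 and 9.62, was highest in tumour 3.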

How the data were processed

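RNA was isolated by RNAzol and converted to biotin-labelled cRNA, per the labels' protocols. The deposited values are linear intensities, 1 for each probe set in each tumour; how the authors summarised, background-corrected or scaled it is not given in the sources used here. Of 22690 probe sets, 64 controls were left out. The array platform's annotation named 1 gene for 20380 probe sets; the 691 with several genes and 1555 with none were not used. The deposited intensities received an offset of 50, log2 and quantile normalization over the 22626 remaining probe sets, since the scaling of the authors is unknown. A gene took its brightest probe set; the filter kept means at or above the median of all probe sets. Genes are named by role: each measured repair gene, and of the other repair genes those at least 2-fold apart, with complex partners (Hus1, Rad17, Rad9a, Rad23b, Cetn2, Mre11a, Exo1, Rad51ap1 and cohesin subunits) added after their values were seen. Members and lists were chosen with earlier results of these data known. The 3 tumours form 1 group, so no test was run. Array medians were 111, 120 and 114. Alternatives were the normalization, the offset, the probe set rule, the filter, the fold and each tumour left out. The calculation was tested on simulated data. Python 3.11.15, numpy 2.4.6, pandas 2.3.3 and matplotlib 3.10.9 were used.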

Additional observations from a re-analysis of the deposited data

How the results depend on the processing

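The counts of repair genes at least 2-fold apart, highest in tumour 3 and, for nucleotide excision, highest in tumour 2 stayed within 1.5 times the reported values with intensities as deposited, with array medians subtracted, with an offset of 100, with the mean of probe sets, without suffixed probe sets and without the filter. The offset is no check on the top tumour, since after quantile normalization it cannot change the order of the tumours within a probe set. With the mean of probe sets the 4 genes at least 2-fold apart were Brca1, Msh6, Ercc1 and Rad21. Brca1 took the place of Apex1, whose difference was 0.48 (log2) there. With an offset of 16, 7 repair genes were at least 2-fold apart (29.5% of all genes were), and at 1.5-fold 19 were, with 16 other repair genes (57.1% of all genes). With the filter at the 75th percentile fewer genes remained, and 4 of 11 repair genes were at least 2-fold apart (36.4%, beside 24.9% of all genes). There, 7 of 11 repair genes were highest in tumour 3 (29.7% of all genes were). The nucleotide excision genes highest in tumour 2 were 2 of 2 (40.0% of all genes were), too few to read a pattern. Of the other repair genes, 0 of 19 were 2-fold apart (24.9% of all genes were). The median deviation of tumour 2 was 0.019 with intensities as deposited, where the array of tumour 2 is the brightest by its median. Leaving out 1 tumour gave 1 to 3 repair genes and 1 to 4 other repair genes at least 2-fold apart, a median range of 0.25 to 0.47, and median deviations of -0.14 to -0.05, -0.086 to 0.051 (positive without tumour 3) and 0.09 to 0.14 in tumours 1, 2 and 3. Without tumour 1, 22 of 35 repair genes were highest in tumour 3, and without tumour 2, 22 of 33 were. Without tumour 1, 5 of 5 nucleotide excision genes were highest in tumour 2, and without tumour 3, 5 of 6 were. No share over all genes is set beside any count with a tumour left out. Counts over 2 tumours are not comparable with those over 3. No difference of a gene at least 2-fold apart changed sign. Among the others, Fancc did so with the mean of probe sets (-0.07). The results on the top tumour were added after the data were seen. No paired analysis was possible because the 3 tumours form 1 group.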

Other observations

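Repair genes below the 2-fold mark also had neighbours with the same order. Around Nbn, 9 of 10 nearest measured genes were lowest in tumour 1 (background 28.8%) and 7 of 10 were highest in tumour 3 (background 30.2%). Among them Decr1, a fatty acid oxidation enzyme gene, was at 8.73, 9.40 and 9.64 in tumours 1, 2 and 3, Otud6b at 8.67, 8.89 and 9.40, and Virma at 8.55, 8.97 and 9.70. Around Rad54l, 8 of 10 were highest in tumour 3 and 7 of 10 lowest in tumour 1. The respiratory chain gene Uqcrh was at 10.50, 10.30 and 11.61 and the glycosylation gene Pomgnt1 at 8.76, 9.27 and 9.80. Around Fanca, 8 of 10 were lowest in tumour 3 (background 44.1%), with Rhou at 10.27, 10.34 and 8.86.

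These 3 neighbourhoods were picked after their values were seen. Of the 33 repair genes with 10 neighbours, 2 shared their lowest tumour with 8 or more (6.06%), beside 6.45% of all genes. For the highest tumour the count was also 2 (6.06%), beside 3.46% of all genes. With 2 genes behind each share, no difference from other genes can be read. Neighbouring windows share genes and are not independent.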
